A study of Mus musculus with 8 samples.

Results

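The genes followed here are Elane, Prtn3, Ctsg, Prss57, Mpo, Ms4a3, Igsf6, Gstm1 and Mgst2, a set of 9 named for the primary (azurophil) granules of neutrophils. They were chosen by name, with earlier results of these data known, so their counts beside all genes are no independent test. They were found on the arrays through the RefSeq accession of each probe, which gave 10 of the 55681 non-control probes and 9 of the 14110 genes tested. Of the 9 genes, 5 encode proteins stored in the granule (Elane, Prtn3, Ctsg, Prss57 and Mpo). The other 4 encode membrane proteins (Ms4a3 and Igsf6) and glutathione transferases (Gstm1 and Mgst2), so the name of the set covers granule contents only in part.

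RNA came from cells labelled granulocyte progenitors (GPs), a name for bone marrow cells committed to making granulocytes. They were separated by a cell sorter according to surface Flt3, a cytokine receptor of early progenitors. The 4 groups were Flt3+ GPs of mice labelled Irf8KO, Flt3- GPs of mice labelled Irf8KO, Flt3+ GPs of wild-type mice and Flt3- GPs of wild-type mice, with 2 one-colour Agilent arrays each, 1 from each of 2 independent experiments. Irf8 encodes a transcription factor that directs myeloid progenitors away from the granulocyte fate. The strain, the age and sex of the mice, the form of the Irf8 allele, the number of animals behind a sample and the other surface markers of the sort are not given in the sources used here.

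Signals are given on a log2 scale on which 0 is the 75th percentile of an array, and a difference was called when limma's adjusted p was under 0.05. The Irf8 probe itself read 6.67 and 6.67 in Irf8KO Flt3+ GPs, 5.64 and 5.53 in Irf8KO Flt3- GPs, 5.80 and 5.87 in wild-type Flt3+ cells, and 4.85 and 4.88 in wild-type Flt3- GPs. Signal of the targeted gene was thus higher on the arrays labelled Irf8KO, and whether this probe lies within the deleted part is not known, so it does not check the labels and every direction below rests on them. Flt3 read 3.60 higher in Flt3+ than in Flt3- GPs of mice labelled Irf8KO and 4.54 higher in those of wild-type mice. Of 7 marker genes of granulocyte progenitors, 6 were matched on the array, and all 6 were well above background in every group. Single markers still differed between the wild-type populations (Flt3+ minus Flt3-), with 3 of the 6 called lower and 1 higher. The 3 lower were Fcgr3, Gfi1 and Cebpa (-4.60, -1.77 and -1.28). The summed levels (multiples of the 75th percentile) were 389 to 402 in Irf8KO Flt3+ GPs, 384 to 401 in Irf8KO Flt3- GPs, 401 to 420 in wild-type Flt3+ GPs and 361 to 373 in wild-type Flt3- GPs. Such similar sums do not show that the cells were alike. Of 8 lymphoid markers 6 were called higher and 0 lower in wild-type Flt3+ than Flt3- GPs, with Dntt at 8.04, Rag1 at 5.82 and Il7r at 5.81. Rag1 and Il7r were not well above background in wild-type Flt3- GPs.

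Primary granules are the first granules that a developing neutrophil makes, at the promyelocyte stage, and their contents are transcribed in that early window and shut off as the cell matures. The serine proteases neutrophil elastase (Elane), proteinase 3 (Prtn3), cathepsin G (Ctsg) and neutrophil serine protease 4 (Prss57) are stored beside myeloperoxidase (Mpo), a haem enzyme that makes hypochlorous acid from hydrogen peroxide and chloride. C/EBP factors, PU.1 and Myb are known to act on the promoters of several of these genes, and a granulocyte progenitor is often recognised by the rise of this programme.

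The promoters of the genes with the widest range of values, of the neighbouring protease gene Prtn3, of Mpo, which had the smallest differences between populations, and of Mgst2, with the only composite ETS-IRF motif among the 8 member genes in the promoter table (all but Prss57), are given as the 250 bases before the gene start, 5′ to 3′ on the gene's own strand, from RefSeq (build GRCm38.p6). Capitals mark matches on either strand to the C/EBP letters TTNNGNAA, the PU.1 letters GAGGAA, the Myb letters AACNG and an ETS-IRF composite, GGAA followed after 2 bases by GAAA. The PU.1 and composite motifs share GGAA and can overlap. The windows lie at chr10:79886062-79886311 on the forward strand (Elane), chr10:79879417-79879666 on the forward strand (Prtn3), chr19:11640852-11641101 on the reverse strand (Ms4a3), chr11:87793534-87793783 on the forward strand (Mpo) and chr3:51660929-51661178 on the forward strand (Mgst2).
Elane: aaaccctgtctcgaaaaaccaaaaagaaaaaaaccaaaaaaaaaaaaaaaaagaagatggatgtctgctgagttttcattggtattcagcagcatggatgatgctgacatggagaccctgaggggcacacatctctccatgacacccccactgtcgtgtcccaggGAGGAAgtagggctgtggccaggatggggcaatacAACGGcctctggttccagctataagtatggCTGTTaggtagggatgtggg
Prtn3: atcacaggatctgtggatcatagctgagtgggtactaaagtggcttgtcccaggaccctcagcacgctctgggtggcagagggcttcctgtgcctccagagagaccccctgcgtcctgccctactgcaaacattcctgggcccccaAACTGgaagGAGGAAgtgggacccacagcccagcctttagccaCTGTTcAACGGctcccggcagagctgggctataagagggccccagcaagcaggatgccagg
Ms4a3: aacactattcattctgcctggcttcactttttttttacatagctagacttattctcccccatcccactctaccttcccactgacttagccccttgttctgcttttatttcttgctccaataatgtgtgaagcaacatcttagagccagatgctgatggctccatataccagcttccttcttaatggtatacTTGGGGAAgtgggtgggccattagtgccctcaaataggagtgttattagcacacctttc
Mpo: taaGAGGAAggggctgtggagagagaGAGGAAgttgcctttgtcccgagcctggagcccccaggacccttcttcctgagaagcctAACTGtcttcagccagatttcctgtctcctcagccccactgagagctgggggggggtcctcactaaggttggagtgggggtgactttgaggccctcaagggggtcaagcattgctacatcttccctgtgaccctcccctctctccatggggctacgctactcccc
Mgst2: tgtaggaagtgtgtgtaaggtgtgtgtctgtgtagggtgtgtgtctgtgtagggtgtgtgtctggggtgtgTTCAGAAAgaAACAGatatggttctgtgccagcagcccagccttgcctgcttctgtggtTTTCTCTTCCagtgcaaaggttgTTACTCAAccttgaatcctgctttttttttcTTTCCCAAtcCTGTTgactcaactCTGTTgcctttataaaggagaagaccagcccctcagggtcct

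Elane and Prtn3 lie next to each other on chromosome 10, and each promoter held GAGGAA followed by AACGG, starting at -85 and -50 before Elane and at -95 and -55 before Prtn3. The Ms4a3 window held a single match, a C/EBP match at -59. GAGGAA was found in the promoters of 5 of the 8 member genes in the table and in 23.3% of the 32851 mouse promoters. The C/EBP letters were found in 3 of 8 against 36.8%, the Myb letters in 7 of 8 against 74.2%, and the composite in 1 of 8, Mgst2, against 2.3%. Such a match describes letters only.

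The main pattern was a common one with graded size. All 9 genes were lower in Flt3+ than in Flt3- GPs of both genotypes, a direction called for 23.6% of all tested genes in mice labelled Irf8KO and 39.2% in wild-type mice. All 9 were higher on the Irf8KO than on the wild-type arrays of Flt3+ GPs, as 16.5% of all tested genes were. In Flt3- GPs the difference between genotypes was small for the granule protein genes. Every one of the 80 member spots read was well above background and none was flagged as saturated, so each difference was measured on both sides. The SD between the 2 arrays of a group was 0.0015 to 0.188, the highest being that of Mpo, and at most 0.089 without Mpo and Ctsg. In these bulk samples, fewer cells of a type and less RNA per cell cannot be told apart.

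**Figure D1:**
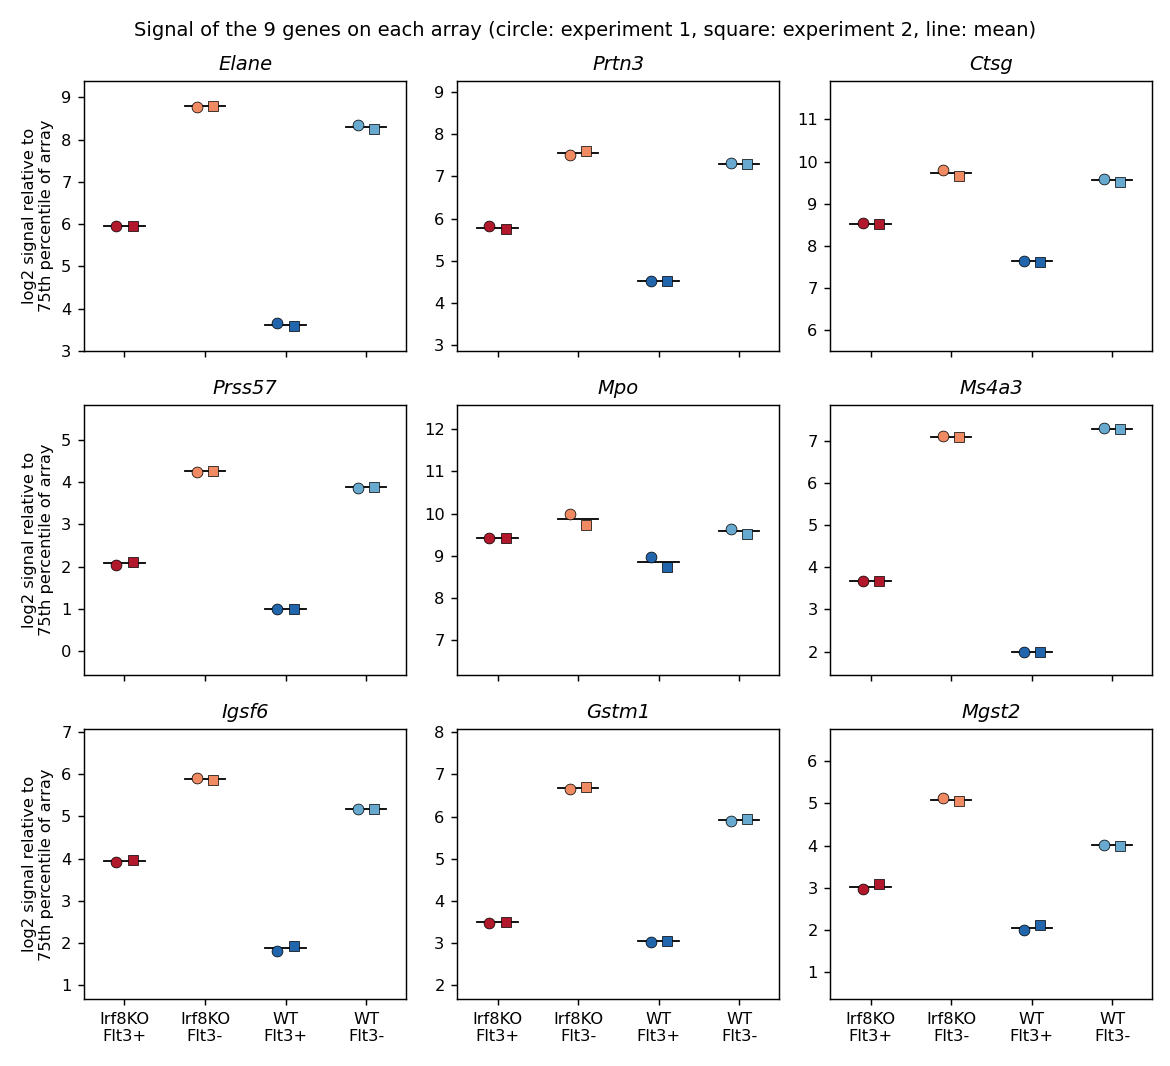
Log2 signal of each of the 9 genes (vertical axis, with 0 at the array's 75th percentile) on the 8 arrays, by group; points are arrays and bars are the mean of the 2 arrays of a group. The wild-type Flt3+ arrays are lowest for each gene, as for Elane at 3.66 and 3.58, and the Flt3- arrays are highest.

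Elane, whose product cleaves elastin and bacterial proteins, read 5.96 and 5.96 in Irf8KO Flt3+ GPs, 8.78 and 8.80 in Irf8KO Flt3- GPs, 3.66 and 3.58 in wild-type Flt3+ cells, and 8.36 and 8.25 in wild-type Flt3- GPs. Both wild-type Flt3+ arrays were low, both Irf8KO Flt3+ arrays lay between, and no groups overlapped. Flt3+ GPs had 7.12-fold less Elane signal than Flt3- GPs in mice labelled Irf8KO (log2 difference -2.83 ± 0.054 SE, adjusted p = 1.76e-06) and 25.7-fold less in wild-type mice (-4.68 ± 0.054, adjusted p = 5.31e-07). Between genotypes Elane was 5.07-fold higher on the Irf8KO arrays of Flt3+ GPs (2.34 ± 0.054, adjusted p = 7.19e-06) and 1.40-fold higher in Flt3- GPs (0.49 ± 0.054, adjusted p = 0.00142).

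Prtn3, which encodes a protease close to elastase and is also the autoantigen of a human vasculitis, had the same order of groups over a narrower range. Its signals were 5.82 and 5.75 in Irf8KO Flt3+ GPs, 7.52 and 7.61 in Irf8KO Flt3- GPs, 4.53 and 4.51 in wild-type Flt3+ cells, and 7.31 and 7.30 in wild-type Flt3- GPs. The difference between populations was 3.42-fold in mice labelled Irf8KO (-1.77 ± 0.050, adjusted p = 4.52e-06) and 6.87-fold in wild-type mice (-2.78 ± 0.050, adjusted p = 9.32e-07). Prtn3 was 2.40-fold higher on Irf8KO than wild-type arrays of Flt3+ GPs (1.27 ± 0.050, adjusted p = 5.29e-05). In Flt3- GPs it was 1.20-fold higher (0.26 ± 0.050, adjusted p = 0.00911), a call that was lost without the wild-type Flt3- array of experiment 2 (adjusted p = 0.0553).

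Ctsg encodes cathepsin G, a chymotrypsin-like protease. It read 8.54 and 8.51 in Irf8KO Flt3+ GPs, 9.79 and 9.65 in Irf8KO Flt3- GPs, 7.65 and 7.63 in wild-type Flt3+ cells, and 9.60 and 9.53 in wild-type Flt3- GPs. Flt3+ GPs were lower by 2.29-fold in mice labelled Irf8KO (-1.20 ± 0.059, adjusted p = 3.36e-05) and by 3.79-fold in wild-type mice (-1.92 ± 0.059, adjusted p = 5.16e-06). The Irf8KO arrays were 1.85-fold higher than wild type in Flt3+ GPs (0.88 ± 0.059, adjusted p = 0.000329). Before scaling, the Ctsg intensities of Flt3- GPs were lower on the Irf8KO arrays (284412 and 289818) than on the wild-type arrays (318666 and 324860). After scaling, the arrays of the genotypes did not overlap in Flt3- GPs, but the difference of 0.16 (95% interval 0.01 to 0.30) did not pass the test (adjusted p = 0.0811). It passed without the Irf8KO Flt3- array of experiment 2 (adjusted p = 0.0370), and it changed sign to -0.16 (adjusted p = 0.122) with quantile normalization and to -0.064 (adjusted p = 0.316) with normexp background correction and quantile normalization.

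Prss57, which encodes a granule protease with an arginine preference, read 2.05 and 2.12 in Irf8KO Flt3+ GPs, 4.25 and 4.27 in Irf8KO Flt3- GPs, 0.99 and 0.99 in wild-type Flt3+ cells, and 3.87 and 3.89 in wild-type Flt3- GPs. Flt3+ GPs were 4.51-fold lower in mice labelled Irf8KO (-2.17 ± 0.042, adjusted p = 1.76e-06) and 7.43-fold lower in wild-type mice (-2.89 ± 0.042, adjusted p = 6.76e-07). Between genotypes Prss57 was 2.14-fold higher on the Irf8KO arrays of Flt3+ GPs (1.10 ± 0.042, adjusted p = 4.71e-05) and 1.30-fold higher on those of Flt3- GPs (0.38 ± 0.042, adjusted p = 0.00149).

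Mpo had the smallest differences between populations of the 9 genes. It also had the brightest member spot (intensity 328650), and compression of such bright signals was not tested. Its signals were 9.42 and 9.41 in Irf8KO Flt3+ GPs, 9.995 and 9.73 in Irf8KO Flt3- GPs, 8.98 and 8.75 in wild-type Flt3+ cells, and 9.64 and 9.51 in wild-type Flt3- GPs. The groups compared did not overlap, and the arrays lay furthest apart in Irf8KO Flt3- GPs (SD 0.188) and closest in Irf8KO Flt3+ GPs (SD 0.0068). Flt3+ GPs were 1.36-fold lower in mice labelled Irf8KO (-0.44 ± 0.118, adjusted p = 0.0253) and 1.64-fold lower in wild-type mice (-0.71 ± 0.118, adjusted p = 0.00295). The Irf8KO arrays were 1.47-fold higher in Flt3+ GPs (0.55 ± 0.118, adjusted p = 0.0197). Before scaling, the Mpo intensities of Flt3+ GPs were 277872 and 280952 on the Irf8KO arrays and 239201 and 272414 on the wild-type arrays. Those of Flt3- GPs were 327929 and 306235 on the Irf8KO arrays and 328650 and 321609 on the wild-type arrays. The 75th percentiles of the Flt3+ arrays were 405 and 412 (Irf8KO) and 472 and 634 (wild type). Those of the Irf8KO Flt3- arrays were 321 and 361. Part of the Mpo differences between genotypes in Flt3+ GPs and between Irf8KO populations thus came from the scaling. In Flt3- GPs the difference of 0.28 (95% interval -0.01 to 0.58) did not pass (adjusted p = 0.102), but passed with the experiment as a block (adjusted p = 0.0366) and was 0.025 with quantile normalization and exactly 0 with normexp. Quantile normalization, which the normexp setting includes, gives spots of equal rank the same value, so a difference at 0 does not show equal signal. With these settings the other Mpo differences were smaller too and stayed past the threshold: 0.31 with either between genotypes in Flt3+ GPs, and -0.27 with quantile normalization and -0.22 with normexp between Irf8KO populations. Leaving out 1 array ended the Mpo call in Flt3+ GPs in 3 cases: the wild-type array of experiment 2 (adjusted p = 0.0676) and the Irf8KO arrays of experiment 1 (0.0853) and experiment 2 (0.0878). The call between Irf8KO populations was lost without the same Irf8KO arrays (0.0919 and 0.0976) or the Irf8KO Flt3- array of experiment 1 (0.103).

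Ms4a3 encodes a membrane protein with several spans that is made mainly in granulocyte and monocyte progenitors and serves to mark their descendants in mice. It had the widest gap between populations: 3.67 and 3.67 in Irf8KO Flt3+ GPs against 7.10 and 7.09 in Irf8KO Flt3- GPs. On the wild-type arrays it read 1.98 and 1.99 in Flt3+ against 7.30 and 7.27 in Flt3- GPs, and no groups overlapped between populations or genotypes. Flt3+ GPs were 10.7-fold lower in mice labelled Irf8KO (-3.43 ± 0.037, adjusted p = 6.82e-07) and 39.3-fold lower in wild-type mice (-5.30 ± 0.037, adjusted p = 1.89e-07). In Flt3+ GPs the Irf8KO arrays were 3.21-fold higher (1.68 ± 0.037, adjusted p = 6.61e-06). In Flt3- GPs Ms4a3 was the exception among the 9, 1.14-fold lower on the Irf8KO arrays (-0.19 ± 0.037, adjusted p = 0.0103). That call was lost without the wild-type Flt3- array of experiment 1 (adjusted p = 0.0760).

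Igsf6, an immunoglobulin-domain membrane protein of myeloid cells, read 3.93 and 3.96 in Irf8KO Flt3+ GPs, 5.91 and 5.87 in Irf8KO Flt3- GPs, 1.81 and 1.93 in wild-type Flt3+ cells, and 5.18 and 5.18 in wild-type Flt3- GPs. Flt3+ GPs were 3.86-fold lower in mice labelled Irf8KO (-1.95 ± 0.052, adjusted p = 3.67e-06) and 9.90-fold lower in wild-type mice (-3.31 ± 0.052, adjusted p = 7.04e-07). Unlike Ms4a3, Igsf6 was higher on the Irf8KO arrays of both populations, by 4.21-fold in Flt3+ GPs (2.07 ± 0.052, adjusted p = 9.61e-06) and 1.64-fold in Flt3- GPs (0.71 ± 0.052, adjusted p = 0.000435).

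Gstm1 encodes a cytosolic transferase that joins glutathione to electrophiles. It read 3.49 and 3.50 in Irf8KO Flt3+ GPs, 6.65 and 6.71 in Irf8KO Flt3- GPs, 3.03 and 3.06 in wild-type Flt3+ cells, and 5.89 and 5.94 in wild-type Flt3- GPs. Flt3+ GPs were 9.11-fold lower in mice labelled Irf8KO (-3.19 ± 0.043, adjusted p = 8.17e-07) and 7.30-fold lower in wild-type mice (-2.87 ± 0.043, adjusted p = 7.04e-07). The Irf8KO arrays were 1.36-fold higher in Flt3+ GPs (0.45 ± 0.043, adjusted p = 0.00121) and 1.70-fold higher in Flt3- GPs (0.77 ± 0.043, adjusted p = 0.000222). A second Gstm1 probe gave differences of 0.53 and 0.75 between genotypes in Flt3+ and Flt3- GPs, and of -3.22 and -3.01 between populations of Irf8KO and wild-type mice. Copies of the Gstm family on chromosome 3 can share hybridisation, so the identity of this signal within the family is uncertain.

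Mgst2 encodes a microsomal glutathione transferase that can also make leukotriene C4. It read 2.97 and 3.08 in Irf8KO Flt3+ GPs, 5.12 and 5.06 in Irf8KO Flt3- GPs, 1.99 and 2.12 in wild-type Flt3+ cells, and 4.01 and 3.997 in wild-type Flt3- GPs. Flt3+ GPs were 4.18-fold lower in mice labelled Irf8KO (-2.06 ± 0.064, adjusted p = 6.3e-06) and 3.86-fold lower in wild-type mice (-1.95 ± 0.064, adjusted p = 6.01e-06). Between genotypes the Irf8KO arrays were 1.96-fold higher in Flt3+ GPs (0.97 ± 0.064, adjusted p = 0.000303) and 2.12-fold higher in Flt3- GPs (1.08 ± 0.064, adjusted p = 0.000257), the largest genotype difference of the 9 in that population.

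Against all genes, the 9 lower calls of 9 between the Irf8KO populations stood beside 23.6% of the 14110 tested genes called lower and 22.1% called higher, and the median member difference of -2.06 beside -0.03 over all genes. The 9 lower calls between the wild-type populations stood beside 39.2% of all genes called lower and 22.6% called higher (5535 and 3194 genes), with medians of -2.87 and -0.12. Quantile normalization turned the wild-type split over all genes to 4123 lower and 4198 higher, and normexp to 4110 lower and 4217 higher, and quantile normalization moved the median of all genes to -0.013. For the Irf8KO arrays of Flt3+ GPs, 9 of 9 were called higher beside 16.5% of all genes, with medians of 1.10 and 0.04; over all genes 2323 were called higher and 1766 lower, and with normexp 2009 and 2330. Without the Irf8KO Flt3+ array of experiment 1 or of experiment 2, the count over all genes in either direction was 2185 or 1995 in place of 4089. In Flt3- GPs 6 members were called higher beside 16.5% and 1, Ms4a3, lower beside 27.2%, with medians of 0.38 and -0.03. In each of these comparisons the arrays of all 9 genes did not overlap between groups, against 76.4% of all genes between populations of Irf8KO mice, 80.3% between those of wild-type mice, 66.6% between genotypes in Flt3+ GPs and 75.2% in Flt3- GPs.

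Since the arrays of the groups did not overlap, every member necessarily kept the sign of its difference within each experiment in all 4 comparisons, which is no further evidence. The median member difference between populations was -2.15 in experiment 1 and -1.98 in experiment 2 for mice labelled Irf8KO, and -2.86 and -2.88 for wild-type mice. Between genotypes the Flt3+ GPs gave 1.06 and 1.14, and the Flt3- GPs 0.38 and 0.37.

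**Figure D2:**
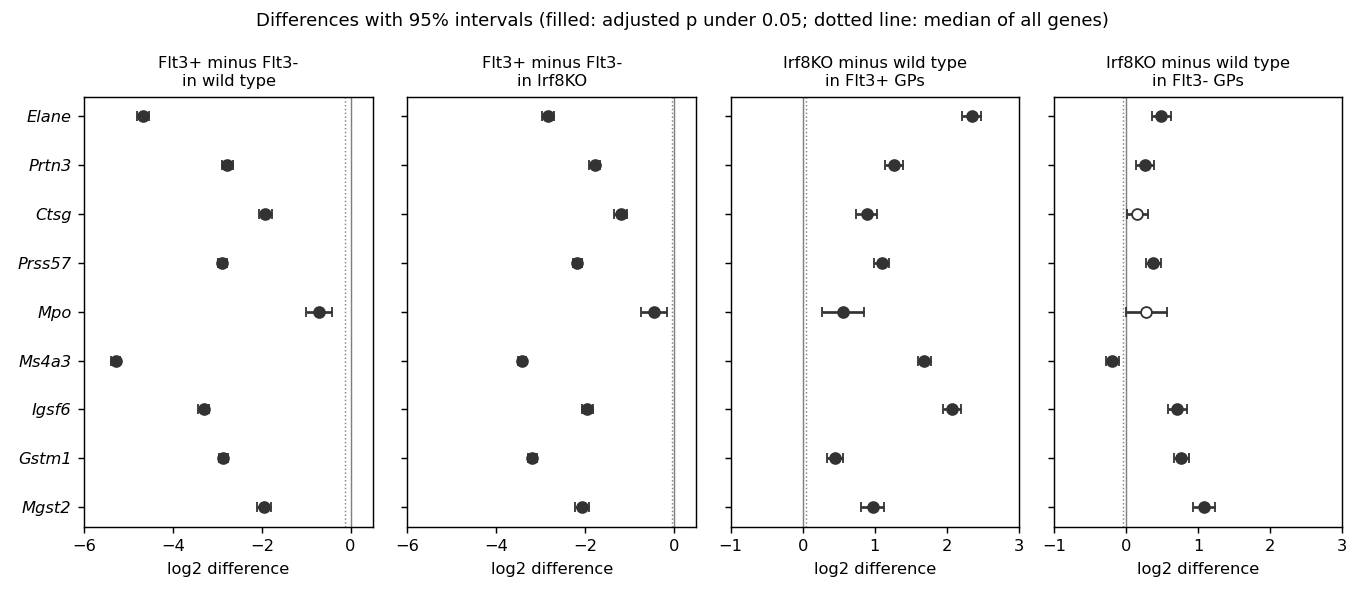
Log2 difference (horizontal axis) of each of the 9 genes in the 4 comparisons, with 95% intervals as bars; filled points passed the test and the dotted line is the median of all genes. Differences between populations are below 0 for all 9 genes, from -5.30 for Ms4a3 to -0.44 for Mpo, and those between genotypes are above 0 except that of Ms4a3 in Flt3- GPs (-0.19).

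Whether the genotype difference itself differed between populations was tested as an interaction, the Irf8KO minus wild-type difference in Flt3+ GPs minus that in Flt3- GPs. All 4 serine protease genes and both membrane protein genes had a larger genotype difference in Flt3+ GPs: Ms4a3 by 1.87 ± 0.053 (adjusted p = 0.000116), Elane by 1.85 ± 0.077 (0.000346), Igsf6 by 1.36 ± 0.073 (0.000689), Prtn3 by 1.01 ± 0.071 (0.0013), Ctsg by 0.73 ± 0.084 (0.00364) and Prss57 by 0.72 ± 0.060 (0.00179). Gstm1 went the other way, with a larger genotype difference in Flt3- GPs (-0.32 ± 0.061, adjusted p = 0.0138). Mgst2 (-0.11, 95% interval -0.34 to 0.11, adjusted p = 0.396) and Mpo (0.27, 95% interval -0.14 to 0.68, adjusted p = 0.274) did not pass. The 6 calls above 0 stood beside 21.4% of all genes and the 1 below 0 beside 9.45%, and the median member value was 0.73 against 0.07 over all genes.

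The Gstm1 call was lost without the wild-type Flt3- array of experiment 1 (adjusted p = 0.0603) or the Irf8KO Flt3+ array of experiment 2 (0.0513). With quantile normalization Mpo (adjusted p = 0.0154) and Mgst2 (0.0289) passed as well, as they did with normexp (0.00733 and 0.00846). The Mpo value itself was 0.28 and 0.31 with these settings, against 0.27. Both set values by rank, and the Mpo genotype difference in Flt3- GPs was at or near 0 under them. Whether its calls come from the ranking was not tested. The split over all genes moved from 3022 above 0 and 1333 below to 1977 and 1869 with quantile normalization and 2029 and 1998 with normexp.

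**Figure D3:**
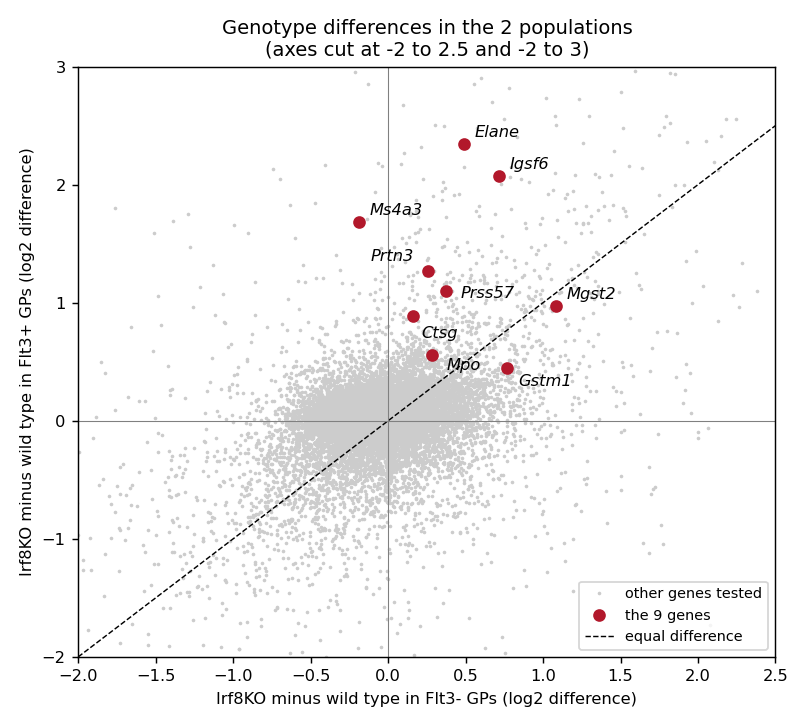
Irf8KO minus wild-type log2 difference of each gene in Flt3+ GPs against that in Flt3- GPs, with the line of equal difference and the other tested genes in grey. Elane (2.34 and 0.49) and Ms4a3 (1.68 and -0.19) lie far to the Flt3+ side of the line, while Gstm1 (0.45 and 0.77) lies on the other side and Mgst2 (0.97 and 1.08) close to it.

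Over the 8 arrays the profiles of the members were alike, with Pearson correlations between pairs from 0.851 (Mpo and Gstm1) to 0.999 (Elane and Prtn3) and a median of 0.964 over 36 pairs. These describe 4 groups of 2 arrays rather than 8 separate conditions. Among 463 other genes with at least the spread of the median member, the profiles most like the mean of the 9 were those of Ptpru, a receptor tyrosine phosphatase (r = 0.9992), Ptgr1, a prostaglandin reductase (0.9989), Gda, guanine deaminase (0.9985), Rhou, a small GTPase (0.9976), and Hsd11b1, which regenerates active glucocorticoid (0.9970). Rhou was dim in Flt3+ GPs, at a mean of -3.33 in Irf8KO and -6.24 in wild-type mice, so part of its profile rests on low signals. Among the most opposed were Mmrn1, a multimerin of platelets and endothelium (-0.9969), the monocarboxylate transporter family gene Slc16a11 (-0.9954), the class II invariant chain Cd74 (-0.9925) and Crispld1 (-0.9923).

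Of the 3 nearest genes on each side of the members, 32 of 46 were tested. In Flt3+ against Flt3- GPs of wild-type mice 21 were called lower and 4 higher (median -0.73), beside 39.2% and 22.6% of all genes. On the Irf8KO arrays of Flt3+ GPs 16 were called higher and 3 lower (median 0.26), beside 16.5% and 12.5%. In Flt3- GPs 12 were higher and 9 lower (median 0.17), beside 16.5% and 27.2%. Between Irf8KO populations 3 were higher and 18 lower (median -0.45), beside 22.1% and 23.6%. The neighbours include relatives of members, such as Gstm3 and Gstm4. Cfd, the complement factor D gene, lies next to Elane on chromosome 10. It differed by -3.59 between wild-type populations and by 1.55 between genotypes in Flt3+ GPs.

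Other contents of primary granules were mostly lower in Flt3+ GPs, and none was called higher on the Irf8KO arrays of Flt3+ GPs. Of 11 tested genes (lysozymes, acid hydrolases and others), 11 were lower in Flt3+ than in Flt3- GPs of mice labelled Irf8KO (median -0.81), and 9 were lower and 0 higher in those of wild-type mice (median -0.69). Cd63, a tetraspanin of the granule membrane, differed by -2.49 in Irf8KO and -2.24 in wild-type mice, and Nkg7, a membrane protein of cytotoxic granules, by -2.14 in wild-type mice. In Flt3+ GPs the Irf8KO arrays had 0 of the 11 called higher and 3 lower (median -0.03), including Cd63 (-0.96, adjusted p = 0.000154), where all 9 members were higher. In Flt3- GPs 2 were higher and 3 lower: the lysozyme genes Lyz2 (0.65) and Lyz1 (0.55) were higher and Cd63 (-0.71) was lower.

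Genes that process or pack granule proteins gave 7 lower and 0 higher of 11 between Irf8KO populations (median -0.58) and 10 lower and 0 higher between wild-type populations (median -0.79). Cst7, cystatin F, an inhibitor of cysteine proteases in granules, differed by -1.77, Slpi, an inhibitor of elastase and cathepsin G, by -1.64, and Srgn, the proteoglycan that holds the proteases in the granule, by -1.57 in wild-type mice. On the Irf8KO arrays of Flt3+ GPs 4 were higher and 1 lower (median 0.11), with Cst7 higher by 0.75 and Slpi lower (-0.42). In Flt3- GPs 0 were higher and 5 lower (median -0.16), among them Ctsc (-0.52), which encodes the dipeptidyl peptidase that activates the granule proteases.

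Among 12 transcription factors of granulocyte development, with Irf8 itself counted as higher in each of the 4 comparisons, 7 were lower and 4 higher in Flt3+ than in Flt3- GPs of mice labelled Irf8KO (median -0.53), and 7 and 3 in those of wild-type mice (median -0.67). Cebpe, needed for later granules, had the widest gap, -5.83 in Irf8KO and -5.97 in wild-type mice, and Gfi1, a repressor needed for neutrophil formation, differed by -1.66 and -1.77. Between genotypes 5 were higher and 1 lower on the Irf8KO arrays of Flt3+ GPs (median 0.10), with Cebpd higher by 1.15 and Cebpb by 1.04. In Flt3- GPs 5 were higher and 1, Cebpe (-0.47), lower (median -0.03), and Cebpd was higher by 0.80.

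Relatives of the granule proteases, such as granzymes and mast cell proteases, gave 8 lower of 8 tested between Irf8KO populations (median -1.02), and 3 lower and 2 higher between wild-type populations (median -0.15). On the Irf8KO arrays 5 were lower and 1, Cfd, higher in Flt3+ GPs (median -0.44), and 3 lower and 0 higher in Flt3- GPs (median -0.09). Prss34, a protease of basophils and mast cells, was lower by far on the Irf8KO arrays, with a difference of -4.58 in Flt3+ GPs and -2.69 in Flt3- GPs. Gzmb, 1 of the 8, was not well above background in Flt3+ GPs of either genotype. Its lower call between Irf8KO populations was thus not measured on both sides.

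Haem peroxidases and haem synthesis, on which Mpo depends, gave 6 lower and 0 higher of 11 between Irf8KO populations (median -0.26) and 7 lower and 0 higher between wild-type populations (median -0.45). Alas1, the first enzyme of haem synthesis, had a profile with larger differences than Mpo: -1.51 between Irf8KO and -2.72 between wild-type populations, and 1.77 between genotypes in Flt3+ GPs and 0.56 in Flt3- GPs. The list as a whole had 3 higher and 1 lower on the Irf8KO arrays of Flt3+ GPs (median 0.09), and 2 higher and 5 lower in Flt3- GPs (median -0.16).

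Glutathione enzymes beyond the 2 members gave 14 lower and 2 higher of 26 between Irf8KO populations (median -0.36), and 16 lower and 4 higher between wild-type populations (median -0.30). Gstm3 differed by -3.31 in Irf8KO and -3.10 in wild-type mice, and Gstm4 by -3.16 and -2.89, with the same limit on copies as for Gstm1. Between genotypes 8 were higher and 5 lower on the Irf8KO arrays of Flt3+ GPs (median 0.01), and 8 higher and 9 lower in Flt3- GPs (median 0.07). Mgst1, the microsomal relative of Mgst2, was higher by 1.14 in Flt3+ and 1.35 in Flt3- GPs.

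Secondary and tertiary granule genes, made after the primary granules, gave 10 higher of 10 on the Irf8KO arrays of Flt3+ GPs (median 1.78) and 10 of 10 in Flt3- GPs (median 1.27). Between populations calls went both ways, with 3 lower and 4 higher in Irf8KO (median 0.08) and 4 lower and 1 higher in wild-type mice (median -0.29). Hp, haptoglobin, differed by -1.55 in Irf8KO and -3.15 in wild-type mice and Lcn2, the siderophore-binding lipocalin, by -2.06 and -2.76. Mmp8, a collagenase of the later granules, went the other way, with a difference of 3.98 between Irf8KO populations, and it was higher by 5.25 on the Irf8KO than on the wild-type arrays of Flt3+ GPs. Mmp8 was not well above background in wild-type Flt3- GPs, Cd177 in wild-type Flt3+ GPs, and Mmp9 and Itgb2l in either, so the medians between genotypes include genes that were not measured on both sides.

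**Figure D4:**
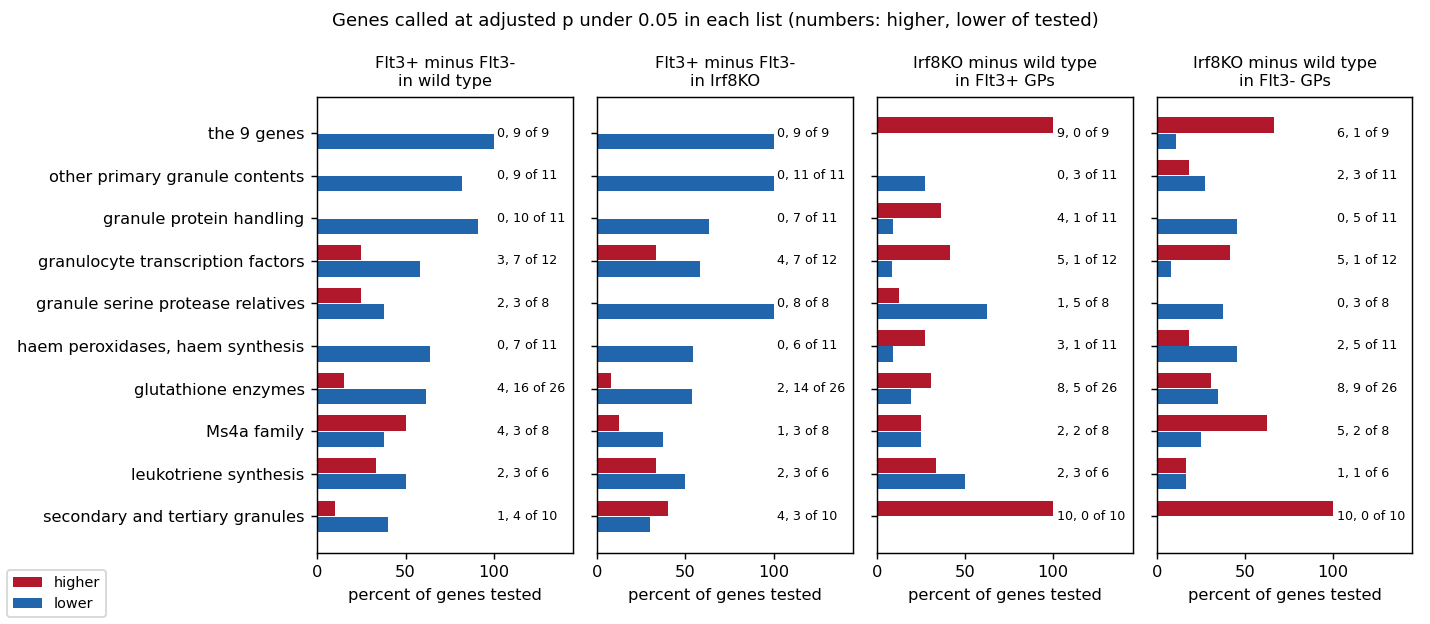
Percent of tested genes called higher (red) and lower (blue) in each gene list for the 4 comparisons, with the counts printed beside the bars. The 9 genes and the secondary and tertiary granule genes are both called higher throughout on the Irf8KO arrays of Flt3+ GPs (9 of 9 and 10 of 10), where the other primary granule contents have 0 of 11 called higher.

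Markers of other cells moved with the groups as well. The summed level of 9 basophil and mast cell markers was 5.69 to 6.005 in Flt3+ against 63.4 to 63.5 in Flt3- GPs of mice labelled Irf8KO, and 13.4 to 14.0 against 132 in those of wild-type mice. For 7 eosinophil markers it was 2.39 to 2.45 against 11.8 to 11.9 in mice labelled Irf8KO, and 5.66 to 5.79 against 23.4 to 23.7 in wild-type mice. Both lists thus were lower in Flt3+ GPs, as the 9 members were, but were lower on the Irf8KO arrays of both populations, where the members were mostly higher. The summed level of 8 lymphoid markers was 242 to 262 in Flt3+ against 6.73 to 6.91 in Flt3- GPs of mice labelled Irf8KO, and 135 to 143 against 5.70 to 5.87 in those of wild-type mice. That of the 10 secondary and tertiary granule genes was 43.3 to 43.8 on the Irf8KO against 10.9 to 11.2 on the wild-type arrays of Flt3+ GPs, and that of the 9 members 1215 to 1228 against 684 to 765. The member sum is mostly Mpo and Ctsg, whose mean log2 signals in Irf8KO Flt3+ GPs were 9.42 and 8.52 against 5.96 for Elane, the next brightest. The part of other cell types in the member differences was not tested.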

How the data were processed

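Agilent arrays with a single dye, Cy3, measured total RNA of 8 samples of sorted granulocyte progenitors. The titles gave groups and experiment numbers. The authors extracted spot intensities with Agilent Feature Extraction 10.7.3.1, per the file headers; the deposited processed intensity is linear and not scaled between arrays. The deposited flags (0 or 1 per spot) for background, saturation and outliers were used too. The deposited series table, a linear intensity signal, appears from its values to be the same data with 1 factor per array (0.672 to 1.33), without centring; its column medians were 26.9 to 29.9. It served as an alternative.

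Control and outlier spots were dropped, spots of a probe averaged, and log2 intensity taken relative to each array's 75th percentile (321 to 634). Of 55681 probes, 26762 were named through RefSeq accessions (GRCm38.p6), giving 20284 symbols. A gene's brightest probe stood for it, and a gene was tested if both arrays of some group were well above background (14110 genes). limma 3.58.1 (R 4.3.3) fitted 1 mean per group over all 8 arrays, with Benjamini-Hochberg adjustment in each comparison. Between 54.9 and 60.1% of spots per array were well above background; the number of arrays limits the precision. Intervals are 95%.

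Experiment numbers, which the labels give as independent experiments, pair the samples across groups; the correlation of experiment differences between groups was -0.03 to 0.12. All arrays lay on 1 slide, Irf8KO in row 2 and wild type in row 1, Flt3+ in columns 1 and 2 and Flt3- in columns 3 and 4, so slide position and group cannot be told apart. The labels do not say how many animals gave a sample, so p-values measure the spread between these samples. The members and the 17 gene lists were chosen with earlier results of these data known. Named were all members, at most 3 called genes per list and comparison, the 5 genes most like and the 5 most opposed (1 is not reported here), and Irf8 and Flt3; Cfd was singled out among neighbours after its values were seen. Code was tested on simulated data.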

Additional observations from a re-analysis of the deposited data

Results flagged for a closer look

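For 7 genes the Irf8KO minus wild-type difference itself differed between Flt3+ and Flt3- GPs by limma's interaction test, on the log2 scale. It was larger in Flt3+ GPs by 1.87 for Ms4a3, 1.85 for Elane, 1.36 for Igsf6, 1.01 for Prtn3, 0.73 for Ctsg and 0.72 for Prss57. It was larger in Flt3- GPs for Gstm1 (-0.32). With 1 array left out the Gstm1 value was -0.35 to -0.29, and its call was not always kept. Over all genes 21.4% were called above 0 and 9.45% below.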

How the results depend on the processing

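Of 756 tests of members under an alternative, 734 kept direction and side of the threshold, 8 gained and 11 lost a call, 1 came to exactly 0 (Mpo between genotypes in Flt3- GPs with normexp), and 2 changed sign: Ctsg between genotypes in Flt3- GPs, at -0.16 with quantile normalization and -0.064 with normexp (median signals, then quantile normalization). Under both, 2 members in place of 1 had an interaction called below 0. The value of exactly 0 for Mpo reflects equal ranks, to which quantile normalization gives equal values. Median member differences over all alternatives ran from -2.89 to -2.56 between wild-type populations and from 1.06 to 1.13 between genotypes in Flt3+ GPs. With the experiment as a replicate block, Mpo gained a call between genotypes in Flt3- GPs (0.28, adjusted p = 0.0366), and no other member call changed. With moderation along the signal trend, Mpo (0.0270) and Ctsg (0.0410) gained it. Without the filter, Mpo lost its call between Irf8KO populations (adjusted p = 0.0562), as it did without 1 array in 3 cases (0.0919 to 0.103). Counts over all genes moved more: between genotypes in Flt3+ GPs 4089 became 2679 without the filter and 2666 with only the groups compared, and the interaction count of 4355 became 2725 without the filter. Leaving out each array gave 1995 to 3679 genes between genotypes in Flt3+ GPs, 4054 (without the wild-type array of experiment 2) to 6442 in Flt3- GPs and 2515 to 4416 for the interaction, lowest without the Irf8KO Flt3+ array of experiment 2 or either wild-type Flt3- array, and 0 to 1 members called lower both between genotypes in Flt3- GPs and for the interaction. The cause was not tested. Fitting only the groups compared gives no interaction. Normexp on the mean spot signal was not run; the median spot signal, chosen after seeing the files, was used. Each group has 2 arrays, and every member spot was flagged as well above background and none as saturated. Compression of the brightest spots, those of Mpo and Ctsg, was not tested.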

Other observations

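Leukotriene synthesis, to which Mgst2 can contribute, was mixed: of 6 genes 3 were lower and 2 higher in Flt3+ than in Flt3- GPs of wild-type mice. Alox5, the first enzyme of the pathway, differed by -3.49 between Irf8KO and -4.16 between wild-type populations, and was lower on the Irf8KO than on the wild-type arrays (-0.81 in Flt3+ and -1.48 in Flt3- GPs), where Mgst2 was higher. Of 8 tested relatives of Ms4a3, 4 were higher and 3 lower in Flt3+ GPs of wild-type mice. On the Irf8KO arrays 2 were higher and 2 lower in Flt3+ GPs, and 5 higher and 2 lower in Flt3- GPs. Ms4a6d was higher by 2.08 in Flt3+ and 1.44 in Flt3- GPs. Ms4a1 was lower in Flt3+ GPs (-2.99), where it was not well above background on the Irf8KO arrays, and Ms4a2 was lower in Flt3- GPs (-2.60).

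Among lists of other cells, counts below are for Flt3+ against Flt3- GPs of wild-type mice and then for Irf8KO against wild-type arrays of Flt3+ GPs. Of 8 erythroid and megakaryocyte markers 2 were higher and 4 lower, then 0 and 8. Monocyte markers, with Irf8 counted as higher in both, gave 7 higher and 2 lower of 10, then 5 and 2. Lymphoid markers gave 6 higher and 0 lower of 8, then 5 and 1. For 7 tested dendritic cell markers the counts were 6 and 0, then 1 and 4, and for 6 stem and multipotent progenitor markers 6 and 0, then 1 and 5. Of 7 eosinophil markers 0 were higher and 7 lower, then 1 and 4, and of 9 basophil and mast cell markers 1 and 6, then 0 and 6. The granulocyte progenitor markers gave 1 higher and 3 lower of 6, then 3 and 1, with Fcgr3 at -4.60 and 2.56.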
